A study of Mus musculus with 6 samples.

Results

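The transcripts of 41 lysosomal genes were examined in bone marrow-derived macrophages (BMDMs) of WT and PYK2 KO mice. The genes were taken by symbol from the deposited count table, which lists 55291 genes, and comprise 10 proteases, 11 enzymes that degrade glycans, 8 lipid hydrolases and lipid carriers, 9 membrane proteins and 3 further soluble proteins. All 41 were found in the table, and all 41 had enough counts to be tested among the 9815 genes that passed the filter on low counts. BMDMs were obtained by culturing marrow cells for 7 days with L929-conditioned medium as the source of M-CSF, the growth factor that macrophages need. One group was WT (3 mice, libraries 1, 5 and 6) and the other Pyk2 knock-out (3 mice, libraries 2, 3 and 4), written PYK2 KO here, which lack the tyrosine kinase PYK2 in all tissues rather than in macrophages alone. All mice were on the C57BL/6 background, and neither group received any agent beyond the culture medium. The age of the mice and whether the groups were littermates were not given in the sources used here. RNA-seq was performed in the study to characterize macrophages without PYK2, and the comparison below asks how far the transcripts of the lysosome differed between the genotypes.

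Lysosomes are acidic organelles in which macrophages break down what they engulf and what they recycle from their own membranes. Most soluble lysosomal enzymes are marked with mannose 6-phosphate in the Golgi and carried to the organelle by dedicated receptors, whereas heavily glycosylated membrane proteins line its limiting membrane. Many lysosomal genes carry E-boxes near their start sites, which are bound by TFEB, TFE3 and MITF, the transcription factors that adjust lysosomal gene expression to nutrient supply. In macrophages, lysosomal proteases also process antigens and Toll-like receptors.

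The promoters of the 41 genes were inspected first, since shared sequence is independent of the comparison between genotypes. Sequences were available from RefSeq (GRCm38.p6) for 37 of the genes, with 41 promoters among them, each covering 250 bases before and 50 bases after an annotated start site. The E-box core CACGTG, which reads the same on both strands, was present in 11 of these 41 promoters (26.8%), compared with 10.6% of the 9960 promoters of the tested genes and 7.15% of all 32851 promoters. Its longer form TCACGTGA, also palindromic and always overlapping the core, was present in 5 promoters (12.2%), compared with 2.02% of the promoters of tested genes and 0.974% of all promoters. The M-box TCATGTGA, searched on both strands, was likewise found in 5 promoters (12.2%), compared with 0.793% and 0.986%. The purine-rich ETS motif GAGGAAGT was present in 4 promoters (9.76%), compared with 3.46% and 3.20%, and the TATA motif TATAAA in 4 promoters (9.76%), compared with 6.51% and 13.6%. The promoters of the lysosomal genes had a median GC content of 57.0%, between that of the tested genes (61.0%) and that of all promoters (52.7%). These matches describe the letters in the window and not binding by any factor.

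**Figure D1:**
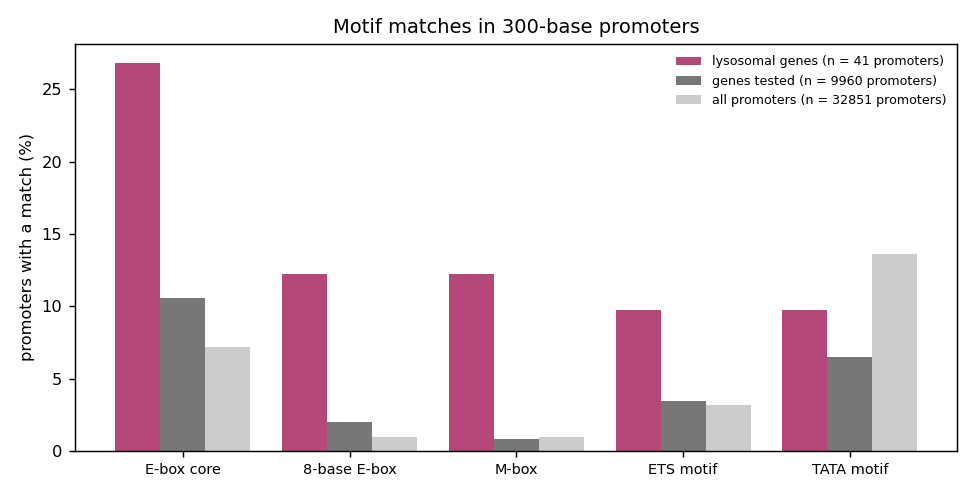
Percentage of promoters (vertical axis) that hold each motif (horizontal axis, by name), for 41 promoters of the lysosomal genes, 9960 promoters of tested genes and all 32851 promoters. The E-box core was present in 26.8% of the lysosomal promoters and the M-box in 12.2%, each above the other 2 bars for the same motif, while the TATA motif was most frequent over all promoters (13.6%).

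The sequences that hold the TCACGTGA form are shown because they are the closest matches to the element through which TFEB is known to act. All are RefSeq sequence on GRCm38.p6, written 5′ to 3′ on the strand of the gene, with the E-box in capitals. The Cln3 site starts 122 bases upstream of the start site, the Ctsd site 99 bases, the Mcoln1 site 46 bases and the Gla sites 228 and 195 bases upstream. In Ctsa 1 site starts 13 bases upstream and the other 4 bases downstream of the start site. Each distance is from the annotated start site of the promoter that holds the match. Ctsa and Cln3 each have another annotated promoter without the core, as does Lgmn.
Cln3 (chr7:126583340-126583369, minus strand): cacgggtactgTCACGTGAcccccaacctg
Ctsd (chr7:142387908-142387937, minus strand): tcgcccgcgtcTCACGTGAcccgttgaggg
Mcoln1 (chr8:3500462-3500491, plus strand): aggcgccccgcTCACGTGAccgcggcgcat
Gla, distal (chrX:134601215-134601244, minus strand): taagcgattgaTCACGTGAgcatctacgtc
Gla, proximal (chrX:134601182-134601211, minus strand): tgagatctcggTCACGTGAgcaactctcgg
Ctsa, upstream (chr2:164833749-164833778, plus strand): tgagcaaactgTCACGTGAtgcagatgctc
Ctsa, downstream (chr2:164833766-164833795, plus strand): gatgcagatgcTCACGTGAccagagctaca

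Lamp1 had 4 cores, the largest number among the 41 promoters, all within the 75 bases before its start site, with the cores in capitals.
Lamp1 (chr8:13159086-13159160, plus strand): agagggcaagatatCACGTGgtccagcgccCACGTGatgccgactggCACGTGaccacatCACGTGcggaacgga

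The M-box matches are shown for Ctss, Tpp1, Ppt1 and Grn, which had no E-box core in the window. Gla had an M-box between its E-boxes, and Tpp1 had a further match in reverse orientation, which starts 16 bases after the start site and is left in lower case. In Grn the match lies upstream of the start site, and in the other 3 genes it lies shortly downstream. In Grn the capitals show the match in its reverse orientation.
Ctss (chr3:95526793-95526822, plus strand): ttgtggatgctTCATGTGAcaagctccgat
Tpp1 (chr7:105752213-105752242, minus strand): ccagaccatgcTCATGTGActtatcacatg
Ppt1 (chr4:122836229-122836258, plus strand): agtccccgcggTCATGTGAttgctaagatg
Grn (chr11:102430285-102430314, plus strand): tgattctctaaTCACATGAtccctagaaat

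The libraries held between 2857097 and 3917207 counts, and no library was a duplicate of another. Ptk2b, which encodes PYK2, had 568 to 737 counts in the WT libraries and 64 to 71 in the PYK2 KO libraries, in accordance with the labels. All 12 macrophage markers were detected at levels that allowed testing, and 0 of them passed after adjustment. Itgam and Lyz2 were higher in each PYK2 KO library than in any WT library (16.7% of the 12, compared with 5.17% of all tested genes). The others overlapped. Of the markers of other cells, 6 of 8 for B cells, 5 of 8 for T and NK cells and 5 of 9 for dendritic cells were at 0 in every library, among them Ms4a1 and Pax5, Cd3e and Cd8a, and Flt3 and Zbtb46. Others on these lists were detected. Ighm, the immunoglobulin heavy chain of B cells, was at 313 to 382 CPM and Cd79b, of the B cell receptor, at 13.8 to 23.2 CPM over the 6 libraries. Cd4 was at 4.47 to 8.68 CPM, and the dendritic markers Batf3 and Itgax at 2.42 to 5.96 CPM and 2.38 to 4.34 CPM. These 5 markers overlapped between the genotypes. Of the erythroid markers 6 of 7, of the mast cell and basophil markers 5 of 7 and of the stromal markers 4 of 8 were at 0, and their summed levels over the libraries were at most 0.894, 1.60 and 9.95 CPM. The 1 tested stromal marker, Acta2, was at 7.41, 4.76 and 7.01 CPM in WT and at 8.66, 8.66 and 8.64 CPM in PYK2 KO libraries, without overlap (log2 fold change 0.44, adjusted p = 0.896 in edgeR's test). Neutrophil granule transcripts were present, with a summed level of 147 to 201 CPM in WT and 157 to 264 CPM in PYK2 KO libraries. Of the 12 neutrophil markers 8 were tested and 3 of these (Mpo, Prtn3 and S100a9) had an unadjusted p-value under 0.05, all toward higher levels in PYK2 KO BMDMs (37.5%, compared with 3.40% of all tested genes in that direction), and 0 passed after adjustment in edgeR's quasi-likelihood test. Of the 8, Mpo, Prtn3 and Ctsg were higher in each PYK2 KO library than in any WT library (37.5%, compared with 5.17% of all tested genes). The other 5 overlapped, with log2 fold changes of -0.26 for Camp, -0.09 for Ltf, 0.10 for S100a8, 0.19 for Ngp and 0.85 for S100a9. Their part in the values of the lysosomal genes was not tested. CPM are counts scaled to a library of 1000000 counts with edgeR's TMM factors. As these libraries read the 3′ end of transcripts, CPM were not divided by transcript length, and levels of different genes are compared here as 3′ tags only. In bulk RNA, fewer cells of a type cannot be told apart from less RNA per cell.

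Many of the 41 lysosomal genes were among the most abundant transcripts of these macrophages. Together they took 5.43%, 5.36% and 5.12% of all counts in WT libraries 1, 5 and 6, and 5.25%, 5.13% and 5.03% in PYK2 KO libraries 2, 3 and 4. The highest share was that of a WT library and the lowest that of a PYK2 KO library, but the groups overlapped. The 95% Wilson interval of each share was at most 0.026 percentage points to either side, which covers counting error only. Of the 41 genes, 28 were within the top 10% of tested genes by mean CPM, and 14 of the 120 genes above 1000 CPM were lysosomal. Ctsd, which encodes the aspartic protease cathepsin D, ranked 3 of the 9815 genes and took most of the protease counts. Psap, the precursor of the saposins that present lipids to hydrolases, ranked 7, Lamp1 14 and Grn, the precursor of the granulins, 18. At the other end, Arsb, a sulfatase, was lowest, with a mean of 18.7 CPM.

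**Figure D2:**
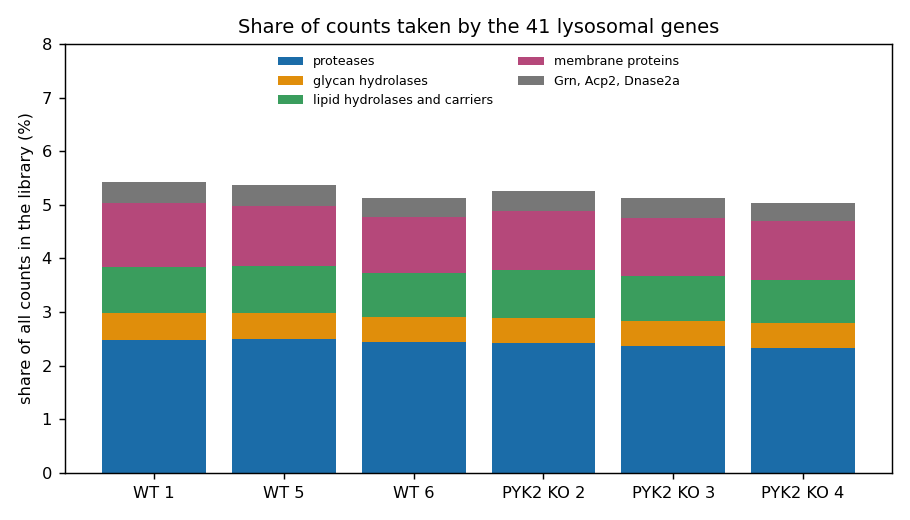
Percentage of all counts (vertical axis) taken by the 41 lysosomal genes in each library (horizontal axis), stacked by role. The total lies between 5.03% in PYK2 KO library 4 and 5.43% in WT library 1, and proteases hold the largest part of every bar.

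No difference between PYK2 KO and WT BMDMs passed the test in any of the 41 lysosomal genes. The quasi-likelihood test of edgeR, adjusted by Benjamini-Hochberg over all tested genes, called 0 of the 41 at 0.05, compared with 0.255% of all tested genes (0.112% higher and 0.143% lower in PYK2 KO BMDMs). At an unadjusted p-value under 0.05 the number was also 0 of 41, compared with 6.03% of all tested genes (3.40% higher and 2.63% lower), and DESeq2 and limma-voom called 0 of the 41 as well. The smallest unadjusted p-value among the 41 was 0.0618, for Fuca1, and the smallest adjusted p-value was 0.858. A p-value above the threshold does not show that levels were equal, so the range of differences that the data allow is given by the intervals. For all 41 genes the 95% interval of the fold change lay within 1.5-fold in either direction, compared with 69.2% of all tested genes. Its bounds ran from 0.731-fold for Gla to 1.497-fold for Arsb. The mean in PYK2 KO BMDMs was between 86.2% and 117% of the WT mean, and for 35 genes it was between 90% and 110% of it. The 41 genes had a median level of 288 CPM, compared with 31 CPM over all tested genes. The intervals of all 12 macrophage markers also lay within 1.5-fold. The share among tested genes of similar level was not computed.

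**Figure D3:**
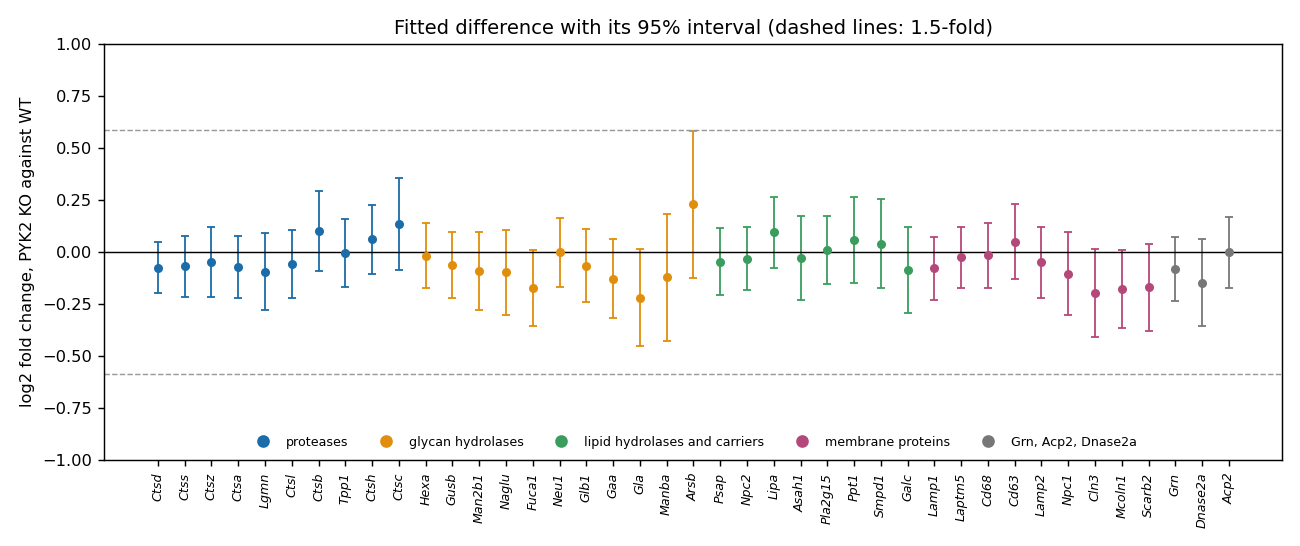
Fitted log2 fold change of PYK2 KO against WT BMDMs (vertical axis) with its 95% interval for each of the 41 genes (horizontal axis), ordered by role and then by level, with dashed lines at 1.5-fold. All intervals include 0 and lie within the dashed lines, and Arsb, the gene with the fewest counts, has the widest interval.

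The small fitted differences were not evenly distributed around 0. Of the 41 genes 32 had a log2 fold change below 0 and 9 above it, with a median of -0.06, while 50.5% of all tested genes were above 0 and the median of all was 0.0019. Among the 1926 genes with a mean of at least 100 CPM, the median was -0.01 and 56.5% were below 0. The 36 lysosomal genes in that range had 29 below 0. The SD of the median log2 level of the 41 between single libraries of one genotype was 0.05. This SD is not the error of a difference between group means, which was not computed for the median. The 41 genes are measured in the same 6 libraries and are therefore not independent of each other. With library totals alone, or with upper quartile factors, 29 of the 41 were below 0, compared with 47.3% and 46.8% of all tested genes. Without WT library 1, or without PYK2 KO library 4, 27 of the 41 were, compared with 50% and 50.1% of all tested genes.

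Only in 3 genes, or 7.32%, did the PYK2 KO values lie on one side of the WT values, compared with 10.2% of all tested genes. These were Ctsa, Gusb and Fuca1, all with lower values in PYK2 KO BMDMs (5.07% of all tested genes had this order and 5.17% the opposite). Ctsa encodes cathepsin A, the carboxypeptidase that protects neuraminidase and β-galactosidase in a complex. It was at 1589, 1669 and 1597 CPM in WT and at 1581, 1508 and 1533 CPM in PYK2 KO libraries. WT library 1 and PYK2 KO library 2 lay next to each other, and the log2 fold change was -0.07 (95% interval -0.22 to 0.08). Fuca1, the α-fucosidase of glycoprotein breakdown, was at 323, 307 and 286 CPM in WT and at 280.4, 283 and 249.8 CPM in PYK2 KO libraries. Its log2 fold change was -0.17 (95% interval -0.36 to 0.01, adjusted p = 0.858 in edgeR's test). Gusb, the β-glucuronidase, was at 655, 668 and 635 CPM in WT and at 632, 628 and 618 CPM in PYK2 KO libraries, with a log2 fold change of -0.06. In each of these genes the gap between the groups was small relative to the level.

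**Figure D4:**
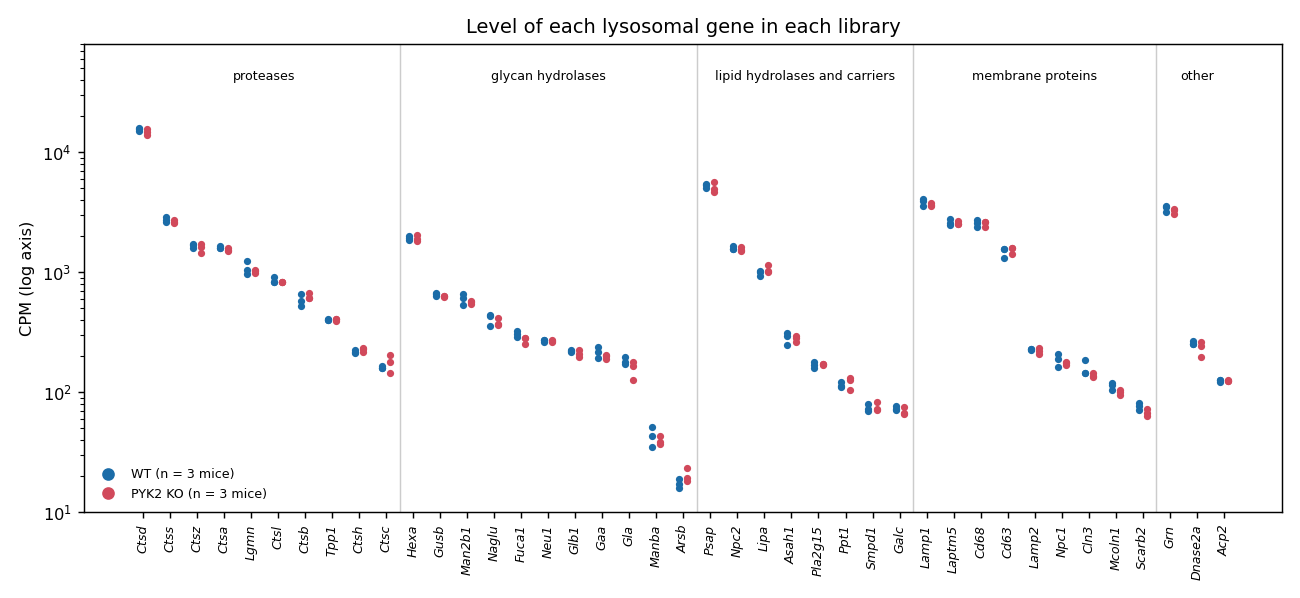
CPM on a log axis (vertical axis) of each of the 41 lysosomal genes (horizontal axis) in the 3 WT and 3 PYK2 KO libraries, 1 point per library. The levels span from 17.2 CPM for Arsb to 15560.4 CPM for Ctsd as WT means, while the points of both genotypes lie close together for each gene.

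Of the 10 proteases 7 had a fitted difference below 0 and 3 above, with a median of -0.05 on the log2 scale. Their summed share of all counts was 2.48%, 2.50% and 2.44% in the WT libraries and 2.42%, 2.38% and 2.33% in the PYK2 KO libraries, lower in each of the latter. After TMM scaling the summed protease levels of the genotypes overlapped, since PYK2 KO library 2 (24638 CPM) lay above WT library 6 (24473 CPM). Ctsd was at 15620, 15958 and 15104 CPM in WT and at 15550.4, 14775 and 13978 CPM in PYK2 KO libraries. PYK2 KO library 2 lay within the WT range, and the other PYK2 KO libraries lay below it. The log2 fold change of Ctsd was -0.08 (95% interval -0.20 to 0.05), the narrowest interval of the set together with the highest counts. Among the cysteine cathepsins, Ctss, which trims the invariant chain of MHC class II molecules, averaged 2768 ± 133 CPM in WT mice and 2639 ± 90.9 CPM without PYK2 (SD, n = 3 each). Ctsl, a broad endopeptidase, was at 858 ± 54.2 and 826 ± 4.38 CPM, and Ctsz, a carboxypeptidase, at 1658 ± 60.8 and 1603 ± 136 CPM in the same order. Ctsl, Ctss and Ctsz each had a log2 fold change between -0.07 and -0.05. The log2 fold change was positive for Ctsb (0.10), Ctsc (0.13) and Ctsh (0.06). With 1 library left out it ran from 0.03 to 0.19 for Ctsb and from 0.0093 to 0.26 for Ctsc, the extremes being without WT libraries 6 and 1 for Ctsb and without PYK2 KO libraries 4 and 2 for Ctsc. Ctsb, an endopeptidase that also trims carboxy termini, lies 3.01 Mb from Ptk2b on chromosome 14 and was the only one of the 41 genes on that chromosome. It was at 657, 577 and 525 CPM in WT and at 606, 609 and 672 CPM in PYK2 KO libraries, so that the groups overlapped. Ctsc, the dipeptidyl peptidase that activates granule proteases, varied most of the proteases among the PYK2 KO mice, from 145 to 204 CPM, compared with 158 to 164 CPM in WT. Lgmn, the asparaginyl endopeptidase, had a log2 fold change of -0.09, and Tpp1, a tripeptidyl peptidase, was the most even gene of all 41, with a ratio of 1.03 between its highest and lowest library.

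Among the 11 enzymes of glycan breakdown, the fitted difference was at or below 0 for all but Arsb (0.23), and its median was -0.09 on the log2 scale. The value of Arsb was 0.11 without PYK2 KO library 4. Hexa, the α subunit of β-hexosaminidase, was the most abundant, at 2022, 1943 and 1856 CPM in WT and at 2061, 1819 and 1874 CPM in PYK2 KO libraries. Both the highest and the lowest value of Hexa belonged to PYK2 KO mice. Gla, the α-galactosidase that removes terminal galactose from globotriaosylceramide, had the lowest log2 fold change of the 41, at -0.22 (95% interval -0.45 to 0.01). It was at 196, 177 and 171 CPM in WT and at 166, 177 and 126 CPM in PYK2 KO libraries. PYK2 KO library 4 had the lowest value. The log2 fold change of Gla was -0.08 without that library and -0.32 without PYK2 KO library 3, where its unadjusted p-value was under 0.05. Man2b1 and Manba, the α- and β-mannosidases, had log2 fold changes of -0.09 and -0.12, Gaa, which degrades glycogen, -0.13, and Naglu, which acts on heparan sulfate, -0.10. Glb1, the β-galactosidase, was at -0.07, and Neu1, the neuraminidase, had equal means of 268 CPM in both genotypes. The ratio of Ctsa to Neu1 counts, 2 partners of the same complex, averaged 6.05 ± 0.192 in WT mice and 5.76 ± 0.24 without PYK2 (SD, n = 3 each), with overlapping values.

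The 8 lipid hydrolases and carriers were centred closest to 0, with 4 genes on each side and a median difference of -0.01 on the log2 scale. Psap was at 5314, 5483 and 5023 CPM in WT and at 5690.0, 4989 and 4635 CPM in PYK2 KO libraries. Again, both the highest and the lowest value were found among PYK2 KO mice. Npc2, the soluble carrier that hands cholesterol to NPC1, was at 1596 ± 53.3 and 1561 ± 60.4 CPM (SD, n = 3 mice each, WT and PYK2 KO). Lipa, the acid lipase that frees cholesterol from its esters, had the highest log2 fold change of this group, at 0.09 (95% interval -0.08 to 0.27). Ppt1, which removes palmitate from proteins, was at 0.06, Smpd1, the acid sphingomyelinase, at 0.04 and Pla2g15, a phospholipase, at 0.01 on the log2 scale. Asah1, the acid ceramidase, had a log2 fold change of -0.03, and Galc, the galactosylceramidase, -0.09. None of these 8 genes had a difference above 0.1 on the log2 scale in either direction.

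Among the 9 membrane proteins the fitted difference was below 0 for 8, and the median was -0.08 on the log2 scale. Lamp1, a major glycoprotein of the lysosomal membrane, was at 4106, 3903 and 3538 CPM in WT and at 3766, 3632 and 3544 CPM in PYK2 KO libraries. WT library 6 was the lowest of all 6, and the PYK2 KO values lay within the WT range. Lamp2, its relative that also serves chaperone-mediated autophagy, had a log2 fold change of -0.05. The ratio of Lamp1 to Lamp2 counts was 17.8, 17.2 and 15.3 in WT and 18.0, 16.5 and 15.1 in PYK2 KO libraries. Both the highest and the lowest ratio belonged to PYK2 KO libraries, and the WT ratios lay between them. Cd68, a macrophage glycoprotein of late endosomes, Laptm5, a transmembrane protein of blood cell lysosomes, and the tetraspanin Cd63 had log2 fold changes of -0.02, -0.03 and 0.05. Cln3, Mcoln1 and Scarb2 were the membrane genes furthest below 0. Cln3, whose loss causes a juvenile storage disease, was at 185, 144 and 146 CPM in WT and at 145, 137 and 134 CPM in PYK2 KO libraries. WT library 1 alone stood well above the others, and the log2 fold change of Cln3, -0.20 in all libraries, was -0.07 without it and -0.26 without WT library 5. Mcoln1, the calcium channel of the lysosomal membrane, was at 119, 114 and 104 CPM in WT and at 94.0, 100.1 and 105 CPM in PYK2 KO libraries, a log2 fold change of -0.18 (95% interval -0.37 to 0.01). Scarb2, the receptor that delivers β-glucocerebrosidase, was at -0.17, and Npc1, the membrane partner of NPC2, at -0.10 on the log2 scale. Npc1 was at -0.0086 without WT library 1 and at -0.20 without WT library 6.

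Of the 3 further soluble proteins, Grn was at 3597, 3502 and 3181 CPM in WT and at 3324, 3368 and 3031 CPM in PYK2 KO libraries, with a log2 fold change of -0.08. The groups overlapped, since WT library 6 lay below PYK2 KO libraries 2 and 3. Acp2, the acid phosphatase, was at 125 CPM in both genotypes (SD 3.04 and 1.04, n = 3 mice each). Dnase2a, which degrades the DNA of engulfed cells, had a log2 fold change of -0.15, and its PYK2 KO library 4 stood apart at 197 CPM, the other libraries ranging from 244 to 268 CPM. The log2 fold change of Dnase2a was -0.04 without that library and -0.23 without PYK2 KO library 3.

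All 11 genes with an E-box core in any annotated promoter had a log2 fold change below 0, with a median of -0.09. Among them Cln3, Ctsa and Lgmn also had a promoter without the core. Of the 26 genes that had a promoter sequence and no core 19 were below 0, with a median of -0.03. The 5 genes with the TCACGTGA form shown above had values from -0.22 for Gla to -0.07 for Ctsa. Over all tested genes, 54.0% of the 978 with the core and 49.1% of the 6774 without it were below 0, with medians of -0.02 and 0.0029. Of the 5 genes with an M-box 4 were below 0, with a median of -0.07, and of the 32 without it 26 were, with a median of -0.06. The 189 tested genes with the TCACGTGA form had a median of -0.01 and 0 of them passed the adjusted threshold. At an unadjusted p-value none of the 11 genes passed either, and the values are given as a description with no test. No gene of the TFEB family passed the test. Tfeb was at 72.8, 69.4 and 55.0 CPM in WT and at 56.5, 59.6 and 58.4 CPM in PYK2 KO libraries, and the groups overlapped through WT library 6. Tfe3 was at 129.99, 137 and 133 CPM in WT and at 147, 145 and 151 CPM in PYK2 KO libraries, higher in each (5.17% of all tested genes had this order), with a log2 fold change of 0.15 (95% interval -0.02 to 0.31, adjusted p = 0.882 in edgeR's test). Mitf and Tfec had log2 fold changes of 0.16 and 0.31, and 0 of the 4 genes had an unadjusted p-value under 0.05. With 1 library left out the log2 fold change ran from 0.01 (without PYK2 KO library 4) to 0.27 (without PYK2 KO library 2) for Mitf and from -0.29 (without WT library 6) to -0.11 (without WT library 1) for Tfeb.

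Mice of one genotype varied little in these genes. The within-genotype coefficient of variation had a median of 6.29% over the 41 genes, compared with 11.7% over all tested genes and 6.94% over those with at least 100 CPM. Counting error alone amounted to a median of 3.24%. WT library 1 held the highest value for 16 of the 41 genes, PYK2 KO library 4 the lowest for 13 and WT library 6 the lowest for 12. WT library 6 held the highest value of only 2 genes. The median level relative to the mean of each gene over the 6 libraries was 104%, 103% and 98.2% in WT libraries 1, 5 and 6, and 98.8%, 98.1% and 97.2% in PYK2 KO libraries 2, 3 and 4. WT library 6 was thus closer to the PYK2 KO libraries than to the other WT libraries. Without it, 5 genes (Cln3, Fuca1, Gaa, Mcoln1 and Npc1) had an unadjusted p-value under 0.05, which is 12.2% of the 41, compared with 6.95% of all genes in that fit. Leaving out any other library gave 1 such gene (2.44%, compared with 4.44% to 6.89% of all genes in those fits), which was Ctsb without WT library 1, Cln3 without WT library 5, Ctsc without PYK2 KO library 2, Gla without PYK2 KO library 3 and Mcoln1 without PYK2 KO library 4. When the first principal component of the residuals was added to the fit, Gla and Mcoln1 had an unadjusted p-value under 0.05 (4.88%, compared with 7.55% of all genes), and without the filter on low counts Cln3, Fuca1 and Gla did (7.32%, compared with 5.26%). In each of these fits 0 of the 41 genes passed after adjustment.

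**Figure D5:**
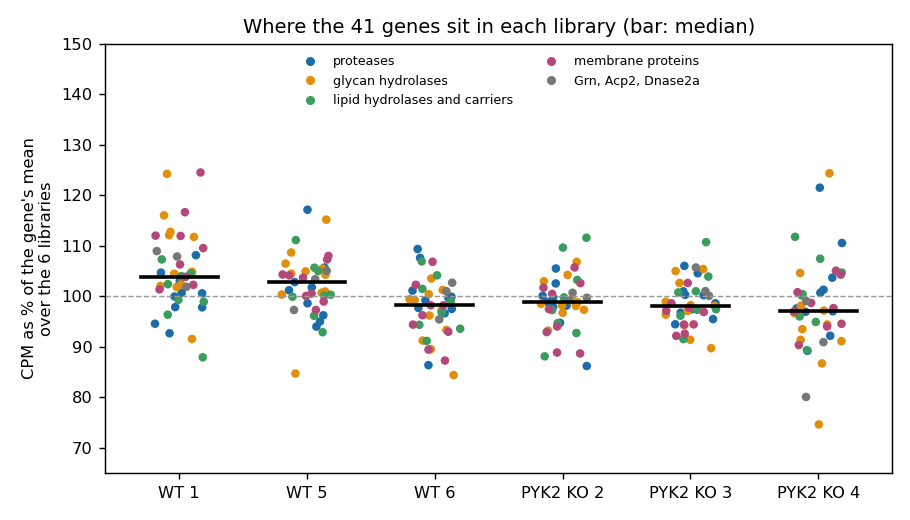
CPM of each of the 41 genes as a percentage of its mean over the 6 libraries (vertical axis) in each library (horizontal axis), 1 point per gene coloured by role, with the median as a bar. The medians are 104% and 103% in WT libraries 1 and 5 and between 97.2% and 98.8% in the other 4.

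Lysosomal genes outside the 41 were compared from lists written from general knowledge. Of 33 further genes of hydrolases and related proteins 30 were tested, and 0 passed the adjusted threshold. Of these, 3 had an unadjusted p-value under 0.05 (6.03% of all tested genes were under it). These were Ctsk, the collagen-degrading cathepsin K (log2 fold change -0.39), Pld3, an endolysosomal nuclease (-0.24), and Rnaset2b, an acid ribonuclease (0.30). Rnaset2b has a near-identical copy, Rnaset2a, so its counts are uncertain. In this list 4 of the 30 genes did not overlap between the genotypes, compared with 10.2% of all tested genes. Ctsk was lower in each PYK2 KO library, and Rnaset2b, Naaa, an acid amidase, and Lyz2, the macrophage lysozyme, were higher. Lyz2 ranked 2 of all tested genes and was at 23536, 24431 and 24237 CPM in WT and at 25925, 24815 and 25427 CPM in PYK2 KO libraries (log2 fold change 0.08, adjusted p = 0.912 in edgeR's test). Ctsk was at 29.4, 24.6 and 31.5 CPM in WT and at 19.9, 22.2 and 22.9 CPM in PYK2 KO libraries (adjusted p = 0.674 in edgeR's test). Of 27 further membrane proteins all were tested and 0 passed, with Laptm4a at an unadjusted p-value under 0.05 (log2 fold change -0.23). Without WT library 1 the value was -0.08 for Laptm4a and -0.14 for Pld3, and without WT library 6 it was -0.32 and -0.35. Of 26 genes of sorting to the lysosome, among them both mannose 6-phosphate receptors and the adaptor complexes, 0 passed and 0 had an unadjusted p-value under 0.05. The genotypes did not overlap for 2 of these 26 (7.69%) and 1 of the 27 membrane genes (3.70%), compared with 10.2% of all tested genes. These were Nagpa and Vps26a, and Tpcn2, each lower in every PYK2 KO library.

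A list of protease inhibitors also holds Spp1 by mistake and was chosen with earlier results of these data known. Of its 14 genes 6 were tested and 2 passed (0.255% of all tested genes did), Slpi and Spp1, both higher in PYK2 KO BMDMs. The shares of this list therefore describe the listed genes only. Slpi encodes a secreted inhibitor of serine proteases such as neutrophil elastase, which is not a lysosomal cathepsin inhibitor. Slpi rose from 43.4, 49.5 and 56.8 CPM in WT to 73.5, 84.5 and 74.5 CPM in PYK2 KO libraries, by 0.64 on the log2 scale with a standard error of 0.11 (adjusted p = 0.0247 in edgeR's test), and the groups did not overlap. Spp1 encodes osteopontin, a secreted phosphoprotein and not a protease inhibitor. Spp1 rose from 3123, 3092 and 3965 CPM to 4610, 4654 and 4616 CPM, by 0.45 on the log2 scale with a standard error of 0.09 (adjusted p = 0.043 in edgeR's test). Neither gene passed when any library other than WT library 6 was left out, and their adjusted p-values in edgeR's test were then 0.0568 to 0.193 for Slpi and 0.0858 to 0.411 for Spp1. The log2 fold change with 1 library left out stayed between 0.55 and 0.74 for Slpi and between 0.38 and 0.57 for Spp1. The summed neutrophil markers were above the WT range in PYK2 KO libraries 3 and 4 and within it in library 2, and of the 8 tested markers 3 were above each WT library in all PYK2 KO libraries and 5 overlapped. The part of these transcripts in the Slpi result was not tested. Of the 6 tested genes 3 had an unadjusted p-value under 0.05 (6.03% of all tested genes), namely Slpi, Spp1 and Cst7. Among the inhibitors of cysteine cathepsins the fitted differences were smaller than that of Slpi, with Cst3, the secreted cystatin C, at 0.03, Cstb, the cytosolic cystatin B, at -0.05 and Cst7, cystatin F, which is itself targeted to lysosomes, at 0.38 on the log2 scale. Cst7 was at 30.6, 33.0 and 31.2 CPM in WT and at 30.2, 43.3 and 49.5 CPM in PYK2 KO libraries, with an adjusted p-value of 0.769 in edgeR's test. The log2 fold change of Cst7 was 0.21 without PYK2 KO library 4 and 0.55 without PYK2 KO library 2.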

How the data were processed

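One library per mouse, 3 WT and 3 PYK2 KO, was made from BMDM RNA by a bulk form of MARS-seq, which reads the 3′ ends of transcripts. Reads were processed by the authors in the UTAP pipeline, and the deposited table holds raw counts, not normalized. The submitters' processing notes name cutadapt, STAR and mm10, and versions and the handling of molecular identifiers are not given in the sources used here. The libraries held 2857097 to 3917207 counts, with between 45 and 61162 for a single lysosomal gene.

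All genes were fitted once with edgeR 4.0.16 under R 4.3.3. Low genes were removed by filterByExpr, libraries were scaled by TMM, and genotype was the only term of the quasi-likelihood test, at a Benjamini-Hochberg threshold of 0.05. Values of the lysosomal genes were read from that fit, with standard errors derived from its F statistics and 95% intervals from these. Scripts were tested on simulated data. Alternatives were DESeq2 1.42.0, limma 3.58.1, other scaling factors and filters, a residual principal component as a covariate, and leaving out each library. The genes, lists and alternatives were chosen with earlier results of these data known, and the alternatives for the lists outside the 41 genes were added after seeing the data. All 41 genes are named. Values per library are given for those whose groups did not overlap and the most abundant of each role, as the rule required, and for others chosen after their values were seen. Genes were placed by symbol with GENCODE M21 (GRCm38). In the last 1000 bases of 6 of the 41 genes an exon of another tested gene overlaps, for 5 on the opposite strand, and the use of strand in counting is not stated. Some genes of the lists are not reported here.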

Additional observations from a re-analysis of the deposited data

How the results depend on the processing

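No paired analysis was possible because no replicate number occurs in both genotypes. The number of lysosomal genes past the adjusted threshold was 0 in each of the 14 alternative fits, with their median log2 fold change between -0.08 and -0.04. Of 574 values of the single lysosomal genes 542 kept their direction and side of the threshold and 32 changed sign, in 15 genes, none of which passed the threshold. With library totals alone these were Tpp1 (0.0041), Neu1 (0.0073) and Acp2 (0.0058), with upper quartile factors the same genes (0.0058, 0.0091 and 0.0077), and with at least 10 counts in every library Neu1 (0.0002). With a library left out the log2 fold changes that crossed 0 ranged as follows, lowest to highest: Ctsz -0.1028 to 0.017, Lgmn -0.1664 to 0.0066, Tpp1 -0.0124 to 0.0093, Hexa -0.0723 to 0.0191, Manba -0.255 to 0.0377, Neu1 -0.0199 to 0.013, Psap -0.1328 to 0.0177, Asah1 -0.1228 to 0.0444, Smpd1 -0.036 to 0.0979, Ppt1 -0.003 to 0.1524, Pla2g15 -0.0259 to 0.0463, Cd63 -0.0279 to 0.1, Cd68 -0.0688 to 0.0329, Laptm5 -0.0573 to 0.0141 and Acp2 -0.0223 to 0.0123. The number of all genes that passed was 159 without a filter and 62 with the residual principal component, against 25, and 14 to 34 with a library left out (15 when WT library 5 or PYK2 KO library 2 was omitted, 14 when PYK2 KO library 4 was). The causes were not tested. Of the genes in the lists outside the 41, 2 passed in all but the fits that left out a library, where the number was 2 without WT library 6 and 0 without any other. With 1 library left out, the log2 fold change itself moved by a ratio of over 1.5 in 35 of the 41 genes. The exceptions were Ctsa, Ctsh, Fuca1, Gusb, Mcoln1 and Scarb2. Changes of sign count among the 35, and for values near 0 a small shift gives a large ratio, as for Tpp1 above. Arsb and Manba had the lowest counts and the widest intervals.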
